A study of Homo sapiens with 8 samples.

Results

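A set of 10 genes that mark the epithelial and mesenchymal states of carcinoma cells were followed in H1299, a human lung carcinoma line of the non-small cell type. They are the transcription factors TWIST1, TWIST2, SNAI1, SNAI2, ZEB1 and ZEB2, the cadherins CDH1 and CDH2, the intermediate filament protein VIM and the epithelial adhesion molecule EPCAM. A probe set belonged to this group where the platform annotation gave it exactly 1 of these symbols, which took 23 of 49293 probe sets and all 10 genes of 18132. The cells had been transfected with short hairpin RNA, and 4 groups were hybridised to 8 one-colour arrays. The USF1 knockdown group held 3 arrays and its own control group 3, and the UGT1A3 knockdown and its own control had 1 array each. Nothing else distinguished the groups in the labels, which describe neither the hairpins nor the control construct nor the time after transfection. USF1 is a transcription factor that binds E-box sequences, and UGT1A3 conjugates glucuronic acid to lipophilic compounds.

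In the epithelial-to-mesenchymal transition, or EMT, epithelial cells lose their junctions and gain motility. Factors of the SNAIL, ZEB and TWIST families bind E-boxes, and SNAIL and ZEB proteins repress CDH1, which encodes E-cadherin, the adhesion protein of epithelial junctions. The replacement of E-cadherin by N-cadherin, the product of CDH2, is called the cadherin switch, and it commonly accompanies a rise of vimentin and a loss of EPCAM.

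Values are log2 intensities as deposited. Arrays of the USF1 set had medians of 6.53 to 6.55, the UGT1A3 knockdown array 5.63 and its control array 5.59, so each knockdown was set only against its own control. A probe set was called dim, and left out of the tests, where its mean over the arrays of a comparison lay under the 40th percentile, a limit of 5.63 with USF1 and 4.76 with UGT1A3. Precision is limited by the small number of arrays. The labels do not say whether replicates were separate cultures, so the p-values cover the spread among these arrays alone, which may be technical. USF1 itself read 6.06, 5.88 and 6.13 on the USF1 knockdown arrays, against 6.31, 6.55 and 6.42 on their controls. This fall of 0.40 (SE 0.08, limma adjusted p = 0.00889) left 75.6% of the control signal. The 9 probe sets that cover UGT1A3 are shared with its neighbours in the UGT1A locus and were all dim in both sets. Their differences in the UGT1A3 pair ran from -0.45 to 0.06, so this knockdown was not checked at the level of its own gene. As checks of an epithelial lung line, the keratin KRT18 stood at the 98.8th to 98.9th percentile of the USF1 arrays and KRT8 at the 78.2th to 81.6th. KRT8 rose by 0.25 (adjusted p = 0.00278), and the lung lineage genes NKX2-1, SFTPC and NAPSA lay near the middle of the arrays and did not pass. Among markers of other cell types, 5 of 6 fibroblast genes, 3 of 4 leukocyte genes and 2 of 4 endothelial genes were dim, and none of the 4 that were tested passed. In the fit without USF1 knockdown 2 the tested endothelial genes numbered 3, and 1 of them rose. The fibroblast genes LUM and FAP reached at most the 1.99th and 4.16th percentiles, and the leukocyte gene PTPRC at most the 6.71th. CD68, known from macrophages and also made by other cells, averaged 9.37 in the USF1 knockdown and 9.46 in the control, a difference of -0.09 (adjusted p = 0.175, or -0.13 and 0.034 without USF1 knockdown 2). PDGFRB, PECAM1 and VWF differed by -0.01 to 0.04, with adjusted p-values of 0.71, 0.998 and 0.968. Their part in the results below was not tested.

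The members occupied opposite ends of the arrays. VIM lay close to the 99.9th percentile on every array of both sets, while EPCAM reached at most the 13.8th percentile and CDH1 at most the 20.9th. Both CDH1 and all 3 EPCAM probe sets were dim in both sets of arrays. The CDH2 probe sets stood between the 71.4th and 89.2th percentiles of the USF1 arrays, and 6 of the 7 ZEB1 probe sets were likewise in the upper part of the arrays. Probe sets differ in how strongly they bind their target, so these positions do not rank the genes by amount of RNA. Within single probe sets, the position could be followed across sets. The ZEB2 probe set 11756954_s_at stood at the 55.7th to 57.1th percentile in the USF1 controls, but at the 34.0th in the UGT1A3 control. The gap was smaller for the other ZEB2 probe set, 11747942_a_at. It stood at the 46.8th to 49.7th percentile in the USF1 controls and at the 42.2th in the UGT1A3 control. Shifts between the control sets were not particular to ZEB2 and went both ways. TWIST2 11757853_s_at stood at the 61.8th to 63.2th percentile in the USF1 controls and at the 51.7th in the UGT1A3 control. SNAI1 stood at the 33.7th to 35.9th and at the 41.5th. The array sets lie on different levels, and this contrast between controls was not tested.

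**Figure D1:**
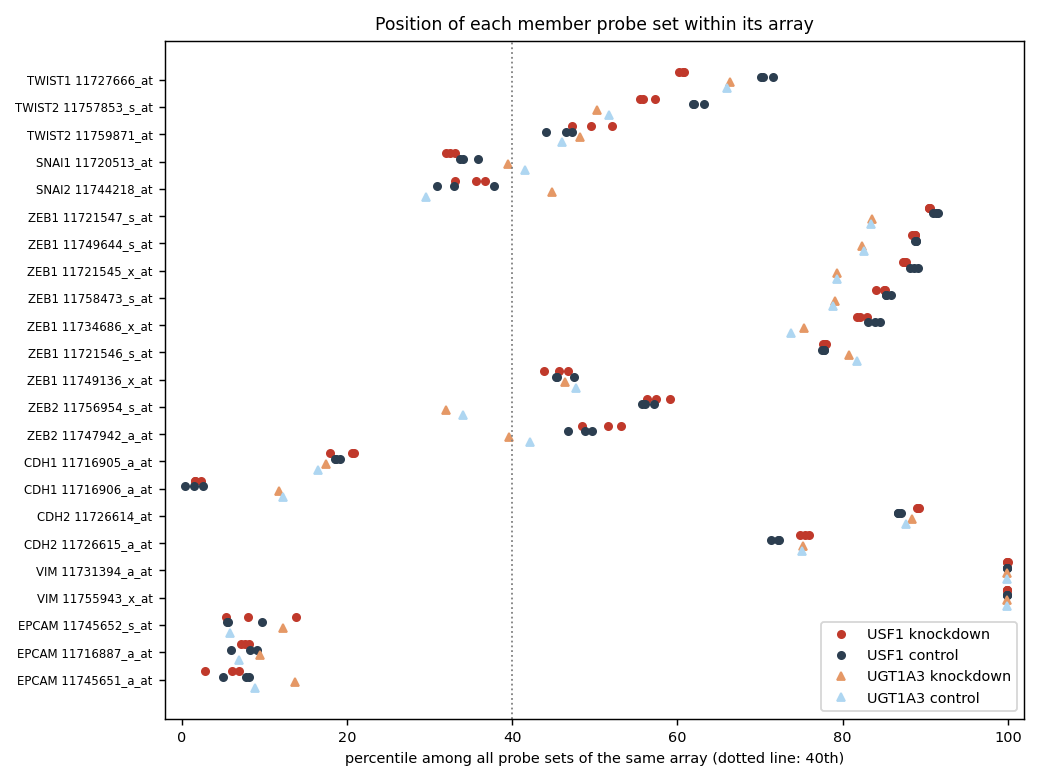
Position of each of the 23 member probe sets among all probe sets of its array (x axis, percentile), for the USF1 knockdown and control arrays (circles, 3 each) and the UGT1A3 knockdown and control arrays (triangles, 1 each). VIM lies at the right edge and EPCAM and CDH1 at the left, and the TWIST1 knockdown circles lie left of their controls.

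After USF1 knockdown 16 member probe sets, of 6 genes, were bright enough to be tested. TWIST1 fell to 54.8% of its control signal, CDH2 rose to 122% and 125%, ZEB1 was slightly lower on some probe sets, and VIM did not move measurably. Of the 16, 2 rose and 5 fell at a limma adjusted p under 0.05, where 19.8% of all 29576 tested probe sets rose and 17.5% fell (37.3% in either direction). The groups did not overlap for 8 of the 16, against 51.2% of all tested probe sets. In 3 the knockdown arrays were the higher ones (27.3% of all) and in 5 the lower ones (24.0%). The count of calls is thus close to the background. The median difference was -0.01 over the members and 0.01 over all tested probe sets.

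TWIST1 encodes a basic helix-loop-helix factor that promotes invasion in carcinoma. Its single probe set read 7.50, 7.47 and 7.45 on the USF1 knockdown arrays, against 8.28, 8.43 and 8.31 on the controls. Every knockdown array lay below every control, and the gap between groups was far wider than the spread within either. The fall was 0.87 on the log2 scale (SE 0.05, 95% interval -0.98 to -0.76). The limma adjusted p was 6.86e-05 with 3 arrays in each group. In bulk RNA, fewer cells that express a gene and less RNA per cell cannot be told apart. Of the 29576 tested probe sets 91 fell by more. A fall of at least 1.5-fold that passed was found in 1.08% of tested probe sets, and TWIST1 was the only member to meet that mark. Without each array in turn the difference stayed between -0.90 and -0.82, with adjusted p-values from 3.98e-04 to 9.55e-04. TWIST1 read 7.00 in the UGT1A3 knockdown and 6.92 in its control, which differ by 0.08, and a single pair has no replicate check.

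Over the 6 USF1 arrays, with the control mean subtracted, the probe sets whose values followed TWIST1 most closely were those of TDG, a DNA glycosylase, CARS1, the cysteinyl-tRNA synthetase, and USB1, a nuclease that trims a spliceosomal RNA. Their root mean square distances from TWIST1 were 0.034, 0.036 and 0.042 log2 units. TDG fell by 0.91, CARS1 by 0.88 and USB1 by 0.89. Likeness over 6 arrays in 2 groups mostly reflects a fall of similar size.

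TWIST2, the close relative of TWIST1, was measured by 2 probe sets that moved in opposite directions. The probe set 11757853_s_at read 7.20, 7.08 and 7.01 in the USF1 knockdown, against 7.57, 7.61 and 7.69 in the control. This fall of 0.53 (SE 0.06, adjusted p = 7.39e-04) was smaller than that of TWIST1. Its value minus that of TWIST1 was -0.31, -0.39 and -0.44 in the USF1 knockdown arrays. In the controls it was -0.71, -0.82 and -0.61, so this gap changed by 0.34 (exact permutation test, two-sided p = 0.1). The probe set 11759871_at read 6.71, 6.51 and 6.30 in the USF1 knockdown, against 6.29, 6.23 and 6.01 in the control. Here the knockdown arrays were the higher ones, by 0.33 (SE 0.12, 95% interval 0.06 to 0.61), with only a hair between the lowest knockdown and the highest control array, and the test was not passed (adjusted p = 0.0594). Without USF1 knockdown 3 this difference was 0.44 (adjusted p = 0.018). In Affymetrix naming, the suffix _s_at marks a probe set that can match several transcripts, including those of related genes. Whether TWIST1 RNA contributes to the TWIST2 probe set that fell was not tested, since the probe sequences were not used here. The gap between the 2 TWIST2 probe sets was 0.48, 0.57 and 0.71 in the USF1 knockdown arrays and 1.28, 1.39 and 1.69 in the controls. The gap changed by -0.86 (exact permutation test, two-sided p = 0.1, the smallest p that 3 against 3 allows). A mean over both probe sets gave -0.10 for the gene (adjusted p = 0.296). For UGT1A3, the same probe sets read 5.65 and 5.47 in the knockdown and 5.73 and 5.26 in the control.

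**Figure D2:**
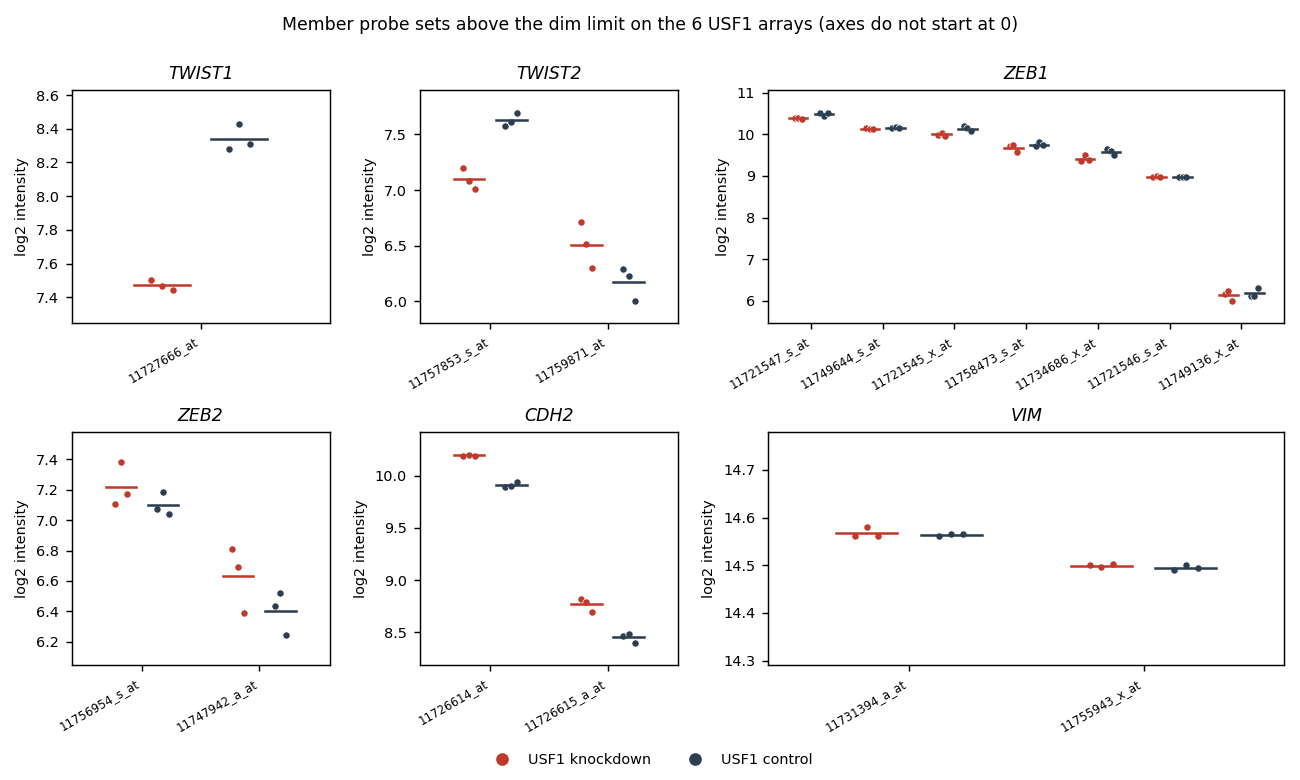
Log2 intensity (y axes, which do not start at 0) of the 16 bright member probe sets on the 6 USF1 arrays, with knockdown arrays left of control arrays, a point for each array and a bar at the group mean. TWIST1 lies at 7.45 to 7.50 in the knockdown and at 8.28 to 8.43 in the control, and the TWIST2 probe sets move in opposite directions.

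SNAI1 and SNAI2 encode SNAIL and SLUG, zinc finger repressors of CDH1. Both were dim in the USF1 arrays and were not tested there. SNAI1 read 5.02, 5.02 and 5.04 in the USF1 knockdown, against 5.29, 5.12 and 5.11 in the control. The knockdown arrays lay just below the controls, by 0.14, and with the dim limit lifted the adjusted p was 0.147. SNAI2 read 5.07, 5.32 and 5.30 in the USF1 knockdown, against 5.44, 5.05 and 4.90 in the control, so the groups overlapped. Between the UGT1A3 arrays SNAI2 gave the widest difference of any member. It read 5.19 in the knockdown array, above the limit of 4.76, and 4.05 in the control array, well under it. The difference was 1.14 as measured (2.20-fold), 0.43 counted from the limit and 0.69 with 16 intensity units added before the logarithm. Its mean in the pair was under the limit, and 17 of the 19712 dim probe sets (0.0862%) were at least 2-fold higher in the knockdown. At least 1.5-fold higher were 1.09%, and 1.85% differed that much in either direction. With 1 array a group this difference had no replicate check. The 3 USF1 control arrays alone spanned 4.90 to 5.44 for this probe set. SNAI1 was just bright enough in the pair, at 4.72 in the knockdown and 4.88 in the control.

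ZEB1 and ZEB2 encode large repressors with zinc fingers at either end, which bind paired E-boxes of the core CACCTG. ZEB1 had 7 probe sets, all tested, of which 3 fell after USF1 knockdown and none rose. All 7 are named _s_at or _x_at, and whether RNA of other genes contributes to their signal was not tested. The probe set 11734686_x_at read 9.37, 9.50 and 9.38 in the knockdown, against 9.65, 9.60 and 9.50 in the control, a fall of 0.17 (SE 0.05, adjusted p = 0.0445). The probe set 11721545_x_at read 9.99, 10.03 and 9.97 in the knockdown, against 10.19, 10.14 and 10.08 in the control, a fall of 0.14 (SE 0.04, adjusted p = 0.0322). The probe set 11721547_s_at read 10.39, 10.39 and 10.38 in the knockdown, against 10.52, 10.45 and 10.51 in the control, a fall of 0.10 (SE 0.03, adjusted p = 0.0425). In each of these the groups were separate, although for the first only barely. The other 4 differed by -0.08 to 0.01 and did not pass, and 11721546_s_at was level at 8.97, 9.01 and 8.98 in the knockdown, against 8.97, 8.97 and 8.98 in the control. Its 95% interval, -0.06 to 0.08, leaves out the falls seen on the 3 others. The mean of the 7 probe sets was 9.25, 9.29 and 9.20 in the knockdown and 9.33, 9.32 and 9.32 in the control, a difference of -0.08 (adjusted p = 0.073 in the fit of gene means). The ZEB1 calls were fragile. All 3 were lost without USF1 control 1 (adjusted p = 0.101 to 0.136), knockdown 1 (0.0879 to 0.13) or knockdown 3 (0.0793 to 0.105) and with no dim limit (0.0897 to 0.126). Without control 2, 11721545_x_at and 11734686_x_at were lost (0.0866 and 0.115). The call of 11721547_s_at was lost without control 3 (0.123), without knockdown 2 (0.0784) and with each array centred on its median (0.0518). Between the UGT1A3 arrays the 7 ZEB1 differences ran from -0.09 to 0.15.

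ZEB2 did not pass on either probe set. The probe set 11747942_a_at read 6.81, 6.69 and 6.39 in the USF1 knockdown, against 6.44, 6.52 and 6.25 in the control, a difference of 0.23 (95% interval -0.04 to 0.50, adjusted p = 0.165). Without USF1 knockdown 3, the lowest of its group, the difference was 0.35 (adjusted p = 0.0232). The probe set 11756954_s_at read 7.10, 7.38 and 7.17 in the knockdown, against 7.08, 7.18 and 7.04 in the control, and differed by 0.12 (95% interval -0.06 to 0.30, adjusted p = 0.275). The groups overlapped on both. The same probe set, 11747942_a_at, read 4.73 in the UGT1A3 knockdown and 4.93 in its control, a difference of -0.20, and 11756954_s_at was dim.

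E-boxes were looked for in the RefSeq promoter windows, 250 bases before to 50 after a start site, that were at hand for 5 of the genes (TWIST2, ZEB1, ZEB2, CDH2 and VIM, 12 windows in all, GRCh38.p14). The letters CACGTG, which USF proteins favour and which read the same on both strands, were in 0 of the 12 windows and in 7.26% of all 35116 windows. CACCTG, the core bound by SNAIL and ZEB proteins, was searched on both strands, so as CAGGTG too, and with no CACGTG found no match overlapped one. It was in 2 of the 12, both of ZEB1, which has 7 windows, against 20.6% of all windows. These 2 windows are shown because they hold a core of the kind that the EMT repressors bind, and capitals mark it. The first is chr10:31318167-31318466 and the second chr10:31318966-31319265, both on the plus strand and written 5′ to 3′. The match in the first begins at -57 from the start site, and those in the second at -242, -85 and 33.
ZEB1 window 1: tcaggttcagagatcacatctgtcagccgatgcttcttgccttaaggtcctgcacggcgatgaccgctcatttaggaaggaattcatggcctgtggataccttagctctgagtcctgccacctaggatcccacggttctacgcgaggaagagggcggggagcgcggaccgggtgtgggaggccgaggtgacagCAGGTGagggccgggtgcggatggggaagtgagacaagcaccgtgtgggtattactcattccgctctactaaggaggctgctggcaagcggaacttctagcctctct
ZEB1 window 2: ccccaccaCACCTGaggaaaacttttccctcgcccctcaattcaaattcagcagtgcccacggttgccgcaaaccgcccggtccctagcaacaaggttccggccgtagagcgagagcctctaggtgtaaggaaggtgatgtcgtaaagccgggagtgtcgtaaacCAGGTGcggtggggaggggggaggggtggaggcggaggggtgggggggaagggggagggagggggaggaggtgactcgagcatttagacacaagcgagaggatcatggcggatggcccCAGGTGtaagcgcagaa
A match of letters is no evidence of binding, and the arrays do not say which start site was used.

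CDH2 rose on both of its probe sets. The probe set 11726614_at read 10.19, 10.20 and 10.19 in the USF1 knockdown, against 9.89, 9.90 and 9.94 in the control, a rise of 0.28 (SE 0.03, 95% interval 0.21 to 0.35, adjusted p = 7.84e-04). The probe set 11726615_a_at read 8.82, 8.79 and 8.69 in the knockdown, against 8.47, 8.49 and 8.40 in the control, a rise of 0.32 (SE 0.04, 95% interval 0.21 to 0.42, adjusted p = 0.00213). In both, all knockdown arrays lay above all controls. The signal was 122% and 125% of the control. Without each array in turn the rises were 0.27 to 0.30 and 0.29 to 0.36, and each passed. With UGT1A3 the probe sets read 9.03 and 7.72 in the knockdown and 8.95 and 7.70 in the control, differences of 0.08 and 0.02.

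CDH1 was near the bottom of every array, and no opposite movement to CDH2 could be tested. Its probe set 11716905_a_at read 4.23, 4.20 and 4.12 in the USF1 knockdown, against 4.11, 4.10 and 4.10 in the control, so the knockdown arrays lay barely above. Its other probe set read 3.13, 3.06 and 3.09 in the knockdown, against 3.07, 2.89 and 3.15 in the control. With the dim limit lifted, the differences were 0.08 and 0.06 (adjusted p = 0.29 and 0.679). In the UGT1A3 pair 11716905_a_at had the same deposited value, 3.34, on both arrays. EPCAM, which mediates contact between epithelial cells, read 3.19 to 3.80 over its 3 probe sets in the USF1 knockdown and 3.31 to 3.61 in the control. Its differences ran from -0.10 to 0.12, with adjusted p-values of 0.505 to 0.984 without the dim limit. A change in either gene at such intensities was not measurable here. On the UGT1A3 arrays the EPCAM probe sets were 0.10 to 0.30 higher in the knockdown, from controls of 2.80 to 2.96, and 0.03 to 0.10 higher with 16 intensity units added.

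VIM, the filament protein of mesenchymal cells, was level. The probe set 11731394_a_at read 14.56, 14.58 and 14.56 in the USF1 knockdown, against 14.56, 14.57 and 14.56 in the control. The probe set 11755943_x_at read 14.50 in each of the 3 knockdown arrays, against 14.49, 14.50 and 14.49 in the control. Their differences were 0.0032 and 0.0042, and both 95% intervals ran from -0.06 to 0.07 (adjusted p = 0.943 and 0.922). The brightest probe set of any USF1 array read 15.07 to 15.12, and whether the VIM signal was close to saturation was not tested. On the UGT1A3 arrays VIM read 13.76 and 13.65 in the knockdown and 13.76 and 13.58 in the control.

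Of the members, 16 probe sets were bright in the UGT1A3 pair, with differences from -0.20 to 0.21 and a median of 0.01, as over all probe sets. None reached 1.5-fold, where 3.48% of 29581 bright probe sets did (1.86% higher and 1.61% lower in the knockdown). The 7 probe sets that passed after USF1 knockdown differed here by 0.08 for TWIST1, -0.08 for TWIST2, 0.01, 0.01 and 0.15 for ZEB1, and 0.08 and 0.02 for CDH2. The ZEB1 value of 0.15 is that of 11734686_x_at, which fell after USF1 knockdown. The knockdowns were in separate sets of arrays, 1 of them without replicates, and the contrast between them was not tested.

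**Figure D3:**
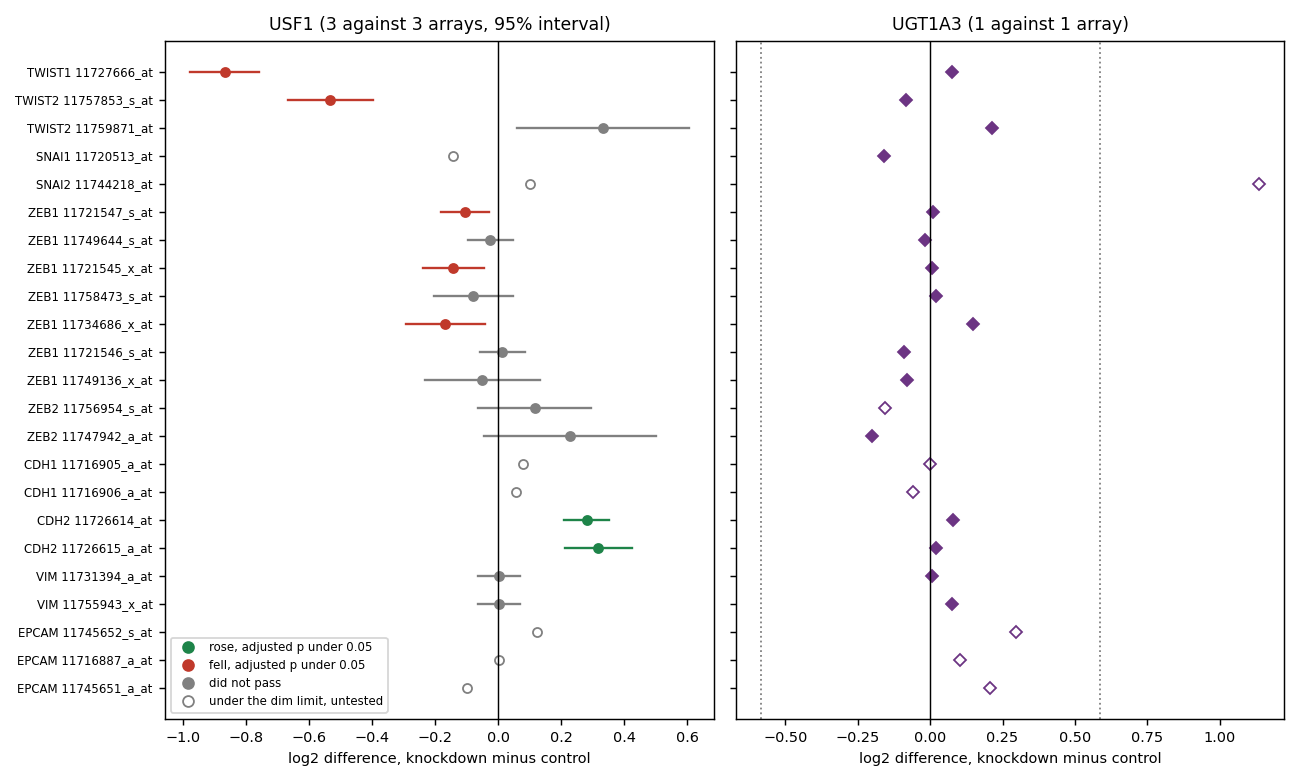
Log2 difference, knockdown minus control, of the 23 member probe sets after USF1 knockdown (left, bars are unadjusted 95% intervals from limma) and in the UGT1A3 pair (right, no interval, dotted lines at 1.5-fold). Filled symbols are above the dim limit. After USF1 knockdown TWIST1 lies at -0.87 and CDH2 at 0.28 and 0.32, and in the UGT1A3 pair only the dim SNAI2 probe set, at 1.14, lies past 1.5-fold.

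The genes around these members were read from lists, each gene by its brightest probe set, with 20.9% of 11448 genes rising, 17.8% falling and a median difference of 0.01 after USF1 knockdown. Of 9 bright relatives, partners and antagonists of the EMT factors, 5 rose and 1 fell (median 0.21). Genes were chosen for these lists with results known. ID proteins lack a DNA-binding region and block E proteins, the dimer partners of TWIST. ID2 averaged 8.50 in the USF1 knockdown and 7.29 in the control, a rise of 1.22 (SE 0.06, adjusted p = 4.76e-05). ID3 rose by 0.70 and ID1 by 0.50, while PRRX1, a homeobox factor of mesenchymal cells, rose by 0.31. The E protein genes themselves were split. TCF4 rose by 0.21 (adjusted p = 0.0197), TCF12 fell by 0.25 (adjusted p = 0.00275) and TCF3 did not pass (adjusted p = 0.948). These E protein values are outside the rule for genes named after USF1 knockdown and were picked after they were seen. Without USF1 knockdown 3, 2 genes of this list fell.

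Corepressors and stability regulators of SNAIL and ZEB were split, with 3 rising and 4 falling of 18 (median 0.0052). CTBP1, a corepressor that ZEB proteins recruit, fell by 0.33 (SE 0.03, adjusted p = 4.01e-04). BTRC, the ubiquitin ligase subunit that marks SNAIL for breakdown, rose by 0.29. LATS2, a Hippo pathway kinase, rose by 0.18, with 3 bright probe sets from 0.0010 to 0.19. AJUBA, an adaptor that joins SNAIL to corepressor complexes, rose by 0.38, with bright probe sets from 0.09 to 0.38. With 1 probe set per gene in the fit 6 of this list rose.

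Of the 14 regulators of the epithelial state 10 were dim, among them ESRP1, ESRP2, GRHL2 and GRHL3. KLF4 rose by 0.28 and KLF5 fell by 0.22, both zinc finger factors, and OVOL2 and GRHL1 did not pass. The KLF5 call was lost without USF1 control 2 or control 3 (adjusted p = 0.0667 and 0.0662) and with no dim limit (0.0534). Of 10 adherens junction genes 4 rose and none fell (median 0.05). The nectin NECTIN2 rose by 0.33, the actin cross-linker ACTN4 by 0.19, NECTIN3 by 0.19 and CTNNA1, the alpha-catenin that ties cadherins to actin, by 0.15. The CTNNA1 call was lost without control 1, control 2 or knockdown 1 (adjusted p = 0.0861, 0.0735 and 0.0833). That of NECTIN3 was lost without control 2, control 3 or knockdown 1 (0.0643, 0.0652 and 0.0657). With no dim limit both were lost (0.0764 for CTNNA1 and 0.0563 for NECTIN3), and CTNNA1 also with a replicate block in the fit (0.0569). Of the other classical cadherins, CDH15 alone was bright, and it differed by 0.07 (adjusted p = 0.217).

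Of 31 epithelial junction and surface genes with a probe set, 23 were bright, and of these 7 rose and 1 fell (median 0.05). ERBB3, a receptor of the EGF receptor family, averaged 7.16 in the USF1 knockdown and 6.44 in the control, a rise of 0.72 (SE 0.06, adjusted p = 2.80e-04), or 0.31 on its other bright probe set. The desmosomal genes DSC2 and PKP3 rose by 0.32 and 0.30, whereas the protease inhibitor SPINT2 fell by 0.63, with 0.31 on its other probe set. Where the limit was raised to the 60th percentile, 3 rose and none fell among 9 genes. Without control 2, 2 fell.

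Of 24 mesenchymal products with a probe set, 17 were bright, and of these 9 rose and 1 fell (median 0.23). The others, COL1A1, COL1A2, COL3A1, COL5A2, MMP2, MMP9 and POSTN, were dim and not tested. S100A4, a calcium-binding protein tied to motility, averaged 9.35 in the USF1 knockdown and 8.07 in the control, a rise of 1.28 (SE 0.06, adjusted p = 5.27e-05). The matrix protein TGFBI rose by 0.62, the ectonucleotidase NT5E by 0.46 and the collagen cross-linking enzyme LOXL2 by 0.45. The gene that fell was THBS1, a matrix glycoprotein, by 0.14 (SE 0.05, adjusted p = 0.049). It is outside the rule for named genes and was picked after its values were seen. Without each array in turn 7 to 9 rose, and none fell except without USF1 control 2, where 1 did.

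Of 6 bright intermediate filament genes and linkers, LMNA, a nuclear lamin, rose by 0.41 (0.02 to 0.41 over 7 probe sets) and PLEC, a linker of filaments, by 0.11. The PLEC call was lost without each array but control 2, with adjusted p-values of 0.0671 to 0.127. It was also lost with no dim limit (0.119) and with a replicate block in the fit (0.0741). Among 13 genes that process cadherins and EPCAM, 5 rose and 3 fell (median 0.10). APH1B, a gamma-secretase subunit, rose by 0.95 (0.56 to 0.95 over 5 probe sets), ADAM17, a sheddase, by 0.25 (0.10 and adjusted p = 0.0557 with its probe sets averaged) and APH1A by 0.16, while FHL2, which joins the released EPCAM fragment, fell by 0.18. Without control 1, 2 or 3 or knockdown 1, 3 of this list rose, and without control 1, control 2 or knockdown 3, 1 fell. Of 18 EMT-inducing signals 5 rose and 3 fell (median 0.06). The TGF-beta receptor TGFBR2 rose by 0.46 while TGFBR1 fell by 0.38, and the inhibitor SMAD7 and the transcription factor STAT3 rose by 0.31 and 0.29. Without control 1, control 3 or knockdown 2, 3 of this list rose.

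**Figure D4:**
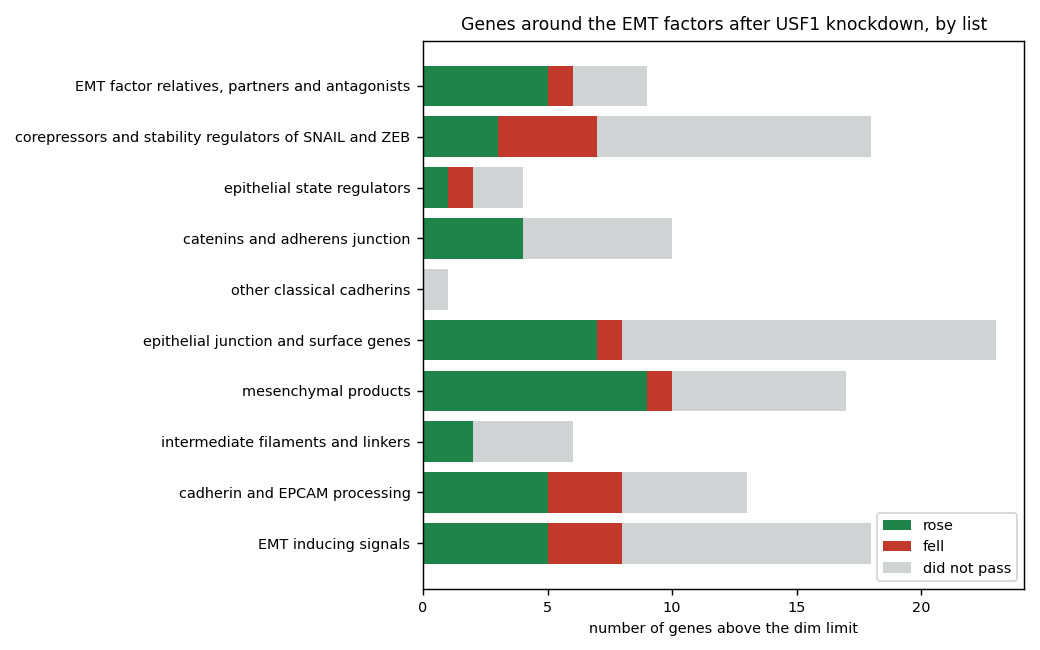
Number of genes above the dim limit in each list (x axis) that rose, fell or did not pass after USF1 knockdown at a limma adjusted p under 0.05. The mesenchymal products hold 9 that rose of 17 and the epithelial junction and surface genes 7 of 23, where 20.9% of all genes rose. The lists were chosen with results of these data known, so these shares are descriptive only.

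For the UGT1A3 knockdown array, 2.15% of 11620 genes exceeded the control by 1.5-fold or more, and 1.41% were that much below it. The mesenchymal products held 2 such genes above and 1 below, of 17. LOX, a collagen cross-linking enzyme, read 6.58 in the knockdown and 5.75 in the control, but its 5 bright probe sets ran from -0.08 to 0.83. The adhesion receptor CD44 read 10.03 in the knockdown and 10.82 in the control, with 10 probe sets from -0.90 to 0.04. TGFBI read 8.80 in the knockdown and 8.21 in the control, a difference of 0.59 that is barely past 1.5-fold, with 4 probe sets from 0.53 to 0.60. It was picked after its values were seen. Among genes that process cadherins and EPCAM, the membrane protease MMP14 read 9.88 in the knockdown and 9.00 in the control, with probe sets from 0.62 to 0.88. The gamma-secretase subunit PSEN2 was higher by 0.60, but its 4 bright probe sets ran from -0.08 to 0.60, and it was under 1.5-fold after quantile normalization (0.57), median centring (0.57) or 16 added units (0.50). TGFBR2 was higher by 0.71, with 0.32 on its other probe set, and SMAD3, a TGF-beta signal carrier, by 0.42. PATJ, a polarity protein of epithelial junctions, was higher by 0.64, or 0.50 with 16 units added, and its probe sets began at 0.05. With the probe sets of a gene averaged, LOX (0.52), CD44 (-0.40), TGFBR2 (0.52) and PSEN2 (0.27) were under 1.5-fold and the signalosome subunit COPS2 (-0.68) was past it.

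The other genes named by the rule were under 1.5-fold by their brightest probe set. KLF4 and OVOL2 differed by 0.56 and -0.52, with 0.12 on the other bright KLF4 probe set. TCF4 and ID2 differed by 0.39 and 0.31, and the chromatin repressor EZH2 by -0.46. COPS2 differed by -0.42, but by -0.81 on its other bright probe set. ERBB3 differed by 0.47 and NECTIN2 by 0.24, with the opposite direction on their other bright probe sets (-0.23 and -0.10). CTNNA1 differed by 0.23, and the filament proteins INA and SYNM by 0.28 and 0.22. The markers CD68, CD3E, KRT18 and SFTPC differed by 0.47, -0.28, -0.12 and -0.15. These describe 1 array against 1.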

How the data were processed

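Total RNA from H1299 cells was hybridised to 8 Affymetrix arrays, 1 for each sample. The authors deposited log2 intensities per probe set, the log base being read from their range. Per the submitters' processing notes MAS5 was used, its role unstated, and the scaling between arrays is not stated there. Genes came from the platform annotation, with symbols updated by Entrez number (44961 of 44988 single-symbol probe sets matched), and promoter windows from RefSeq. After 102 control probe sets were left out, bright probe sets were fitted with limma 3.58.1 (R 4.3.3, lmFit and eBayes, no replicate block), with Benjamini-Hochberg adjustment over all of them. The fit was also run on simulated arrays with independent normal noise and few changed probe sets, which does not test the calls given here. The UGT1A3 pair gave differences only.

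No block was used because the labels do not say that replicate numbers pair the cultures. Same-numbered USF1 arrays deviated from their group means with correlations of -0.09, 0.17 and 0.08. For knockdown and control arrays of different numbers these ran from -0.23 to 0.16. Such correlations cannot decide whether the arrays were paired. The members and gene lists were chosen with earlier results of these data known. The text names all members, up to 4 genes a list with the smallest adjusted p (up to 2 with the largest change where none passed), up to 2 a list with the largest difference in the UGT1A3 pair, and the 3 genes most like TWIST1. Alternatives were quantile normalization, median centring, other dim limits, 16 added intensity units, 1 probe set or the mean per gene, an intensity trend with a robust prior, a replicate block and each array left out.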

Additional observations from a re-analysis of the deposited data

How the results depend on the processing

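The call of TWIST1 held in all alternatives run, and those of both CDH2 probe sets held wherever they were fitted. With 1 probe set per gene only the brighter CDH2 probe set was fitted, and averaging gave 1 value for the gene. Over tested member probe sets and alternatives after USF1 knockdown, 197 values kept their side of the threshold, 22 lost it and 6 gained it. None that passed reversed, and the mean of a gene was counted once for each of its probe sets. Members rising numbered 2 and falling 5. With no dim limit 2 fell. With 1 probe set per gene 1 gene rose and 3 fell, and with a gene's probe sets averaged 1 rose and 1 fell, genes being counted there in place of probe sets. With the replicate block 4 rose, as the TWIST2 probe set 11759871_at (adjusted p = 0.00507) and the ZEB2 probe set 11747942_a_at (0.0276) passed, and the ZEB1 probe set 11721547_s_at did not (0.0872). The block is given only as an alternative. The same TWIST2 probe set passed with 16 intensity units added (0.0496) and with the intensity trend (0.0146). Without each array in turn 2 to 4 members rose and 2 to 4 fell. Over all probe sets 5849 rose and 5181 fell, and without each array in turn 4206 to 5789 rose and 3888 to 5195 fell. Counted as genes, 2515 rose and 2142 fell with 1 probe set each, and 2399 and 2176 with the mean. In the UGT1A3 pair 551 probe sets were at least 1.5-fold higher and 477 lower, with 275 higher after 16 units were added, and 155 genes higher and 131 lower with the mean of probe sets. With no dim limit 1 member, SNAI2, was higher. Apart from what is stated, the cause of these changes was not tested. Signal near background limits CDH1, EPCAM, SNAI1 and SNAI2.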

Other observations

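ZEB1-AS1, the RNA transcribed from the opposite strand beside ZEB1, is not a member and has 2 probe sets. The probe set 11745924_at read 7.24, 7.27 and 7.08 in the USF1 knockdown, against 7.39, 7.35 and 7.38 in the control, a fall of 0.17 (SE 0.05, limma adjusted p = 0.0406). The probe set 11745925_at read 6.95, 6.98 and 7.00 in the knockdown, against 6.93, 7.18 and 7.12 in the control, a difference of -0.11 (adjusted p = 0.246). In the UGT1A3 pair they were higher in the knockdown by 0.18 and 0.43, while the ZEB1 probe sets differed by -0.09 to 0.15. The files do not say which strand each probe set reads.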
